A study of Mus musculus with 42 samples.

Results

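Genes of the Polycomb group were followed by RNA immunoprecipitation sequencing (RIP-seq) of tagged Tnrc6a in mouse embryonic stem cells. The 10 genes studied are Ezh1, Ezh2, Suz12, Eed, Jarid2, Mtf2, Cbx2, Cbx7, Scml2 and Scmh1. They were chosen by gene symbol, and each has a row in the count tables of both experiments, among 18825 rows in experiment 1 and 19866 in experiment 2. Scml2 and Scmh1 were included because they had been seen to be enriched with the tag, so their tag-specific values are given as a description with no test.

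The cells were 129S6/SvEvTac embryonic stem cells with a yGlob GFP_5xT71BS reporter and stably transfected FLAG-Cas9::T2A::Blasticidin, a background that every group shared. The genotypes were untagged cells, cells with HA-AVI-Tnrc6a (tagged), tagged Trim71-/- cells and tagged Ago2-/- cells, the last in experiment 2 alone. From each genotype RNA was sequenced from the lysate (input) and from anti-HA beads (IP), with 3 libraries per group and 42 libraries in 14 groups in all. The triplicates were separate dishes per the labels, and whether a genotype is a single clone, and which promoter drives the reporter or Cas9, is not given in the sources used here.

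Polycomb proteins keep developmental genes silent through modified histones. Polycomb repressive complex 2 (PRC2) methylates lysine 27 of histone H3 through Ezh1 or Ezh2 together with Suz12 and Eed, and Jarid2 and Mtf2 bring it to CpG-rich chromatin. Canonical PRC1 reads that mark through Cbx proteins such as Cbx2 and Cbx7, and Scml2 and Scmh1 are SAM- and MBT-domain proteins related to fly Sex comb on midleg that associate with it. MicroRNAs guide Argonaute proteins, Ago2 among them, to mRNAs, and these recruit Tnrc6a, of the GW182 family, which silences the mRNA. Trim71 binds and silences other mRNAs in stem cells. The question set by the design is whether the mRNAs of these genes associate with Tnrc6a, and whether Trim71 or Ago2 is needed for it.

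MicroRNAs were not measured in these libraries. For reference, the mature sequences of 3 members of the miR-290 family, the main microRNA family of mouse embryonic stem cells, are shown because such microRNAs guide Argonaute and Tnrc6a to mRNAs. They come from RefSeq on build GRCm38.p6, lie on the + strand at chr7:3218968-3218989, chr7:3220691-3220712 and chr7:3220815-3220837, and are written 5′ to 3′, with the seed, bases 2 to 8, in capitals.
mmu-miR-291a-3p: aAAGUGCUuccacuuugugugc
mmu-miR-294-3p: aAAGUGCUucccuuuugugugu
mmu-miR-295-3p: aAAGUGCUacuacuuuugagucu
All 3 share the seed AAGUGCU. Target sites in the Polycomb mRNAs were not analysed here.

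The 18 libraries of experiment 1 held 12587257 to 23657840 counts each, and the 24 libraries of experiment 2 held 16296447 to 21026552. The 10 genes had between 72 counts (Scml2) and 17975 counts (Jarid2) in a library, and all 10 passed the filter on low counts in both experiments. Levels are CPM, counts per 1000000 of the TMM-adjusted library size. As a check of the labels, Ago2 input was 390.2, 321 and 347 CPM in tagged cells and 158, 162 and 167 CPM in Ago2-/- cells. Libraries labelled Trim71KO held no less Trim71 input RNA than tagged ones (284, 283 and 278 CPM against 265, 227 and 229.8 CPM in experiment 1), so RNA levels do not check that label. All 10 embryonic stem cell markers of a fixed list averaged above 1 CPM in every group. Replicates of a group differed by more than sampling noise in all 42 pairs, most of all replicates 1 and 3 of the tagged IP of experiment 2, with a chi-square per gene of 64.11. In experiment 1 replicates 1 and 2 of the tagged input, at 28.15, and replicates 1 and 3 of the Trim71KO IP, at 46.05, stood apart, as did replicates 1 and 2 of the untagged IP of experiment 2, at 49.79.

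Input levels per kilobase, which allow genes to be set beside each other, put the PRC2 genes above the Scm homologs. In tagged cells of experiment 1 Eed (75.9 ± 5.6 CPM per kb, SD, n = 3), Jarid2 (71.3 ± 5.9) and Mtf2 (63.0 ± 6.0) had the highest means. Eed and Jarid2 differed by less than their SDs, whereas Jarid2 and Mtf2 differed by more than either SD. Suz12 followed at 50.4 ± 4.6, Cbx7 at 37.3 ± 3.7 and Ezh2 at 25.7 ± 1.2 CPM per kb. Cbx2 had 8.18 ± 1.4 and Ezh1 3.75 ± 0.16 CPM per kb. Scmh1 at 1.71 ± 0.12 and Scml2 at 1.51 ± 0.09 CPM per kb were lowest. In tagged cells of experiment 2 the order began with Mtf2 (74.0 ± 2.9 CPM per kb), Suz12 (60.6 ± 2.9), Jarid2 (55.3 ± 2.1) and Eed (46.1 ± 0.93), and Scml2 (4.05 ± 0.46) stood above Scmh1 (2.48 ± 0.13). Over the input means of all genotypes in both experiments, which were scaled separately, Scml2 ran from 0.70 to 4.05 CPM per kb, whereas Cbx2 kept between 8.18 and 9.84.

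With the tag, the IP to input ratio rose most for Scml2, Ezh1, Cbx2, Suz12, Scmh1 and Cbx7 in both experiments. Jarid2, Mtf2, Ezh2 and Eed lay below those 6. This split was drawn from the values themselves, for which Scml2 and Scmh1 had been included, and is a description. Tag-specific association is the IP to input log2 ratio of tagged cells minus that of untagged cells. In experiment 1 it was 2.91 for Scml2 (SE 0.20), 2.40 for Ezh1 (SE 0.15), 2.34 for Cbx2 (SE 0.16), 2.17 for Suz12 (SE 0.14), 1.59 for Scmh1 (SE 0.15) and 1.01 for Cbx7 (SE 0.12). In experiment 2 each of these values was smaller: Scml2 had 1.86 (SE 0.20), Cbx2 1.64 (SE 0.16), Ezh1 1.36 (SE 0.13), Suz12 1.03 (SE 0.13), Cbx7 0.43 (SE 0.10) and Scmh1 0.39 (SE 0.12). The median over all genes was -0.10 and -0.03. The catalytic subunit Ezh1 and its partner Suz12 stood with the PRC1 genes, while Ezh2, the other catalytic subunit, had -0.48 (SE 0.11) and 0.07 (SE 0.08).

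The remaining PRC2 genes, Eed, Jarid2 and Mtf2, had values below those of the 6 genes listed first in both experiments. Eed, which binds methylated lysine 27, had -0.78 (SE 0.11) and -0.06 (SE 0.10). Jarid2 had 0.30 (SE 0.12) and 0.17 (SE 0.10), and Mtf2 had 0.03 (SE 0.12) and 0.04 (SE 0.07). In experiment 2 the signs of Ezh2, Mtf2 and Jarid2 turned to -0.14, -0.16 and -0.04 when only library totals were used for scaling, which moved the median of all genes from -0.03 to -0.24. Scaled that way, Cbx7 was at 0.22 and Scmh1 at 0.18. With the tag, edgeR called 28.1% of all genes tested higher in experiment 1 and 18.9% in experiment 2, at an adjusted p under 0.05. The shares called lower were 28.8% and 8.77%. Calls for the 10 genes are not given, since the tag contrast took part in their choice.

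**Figure D1:**
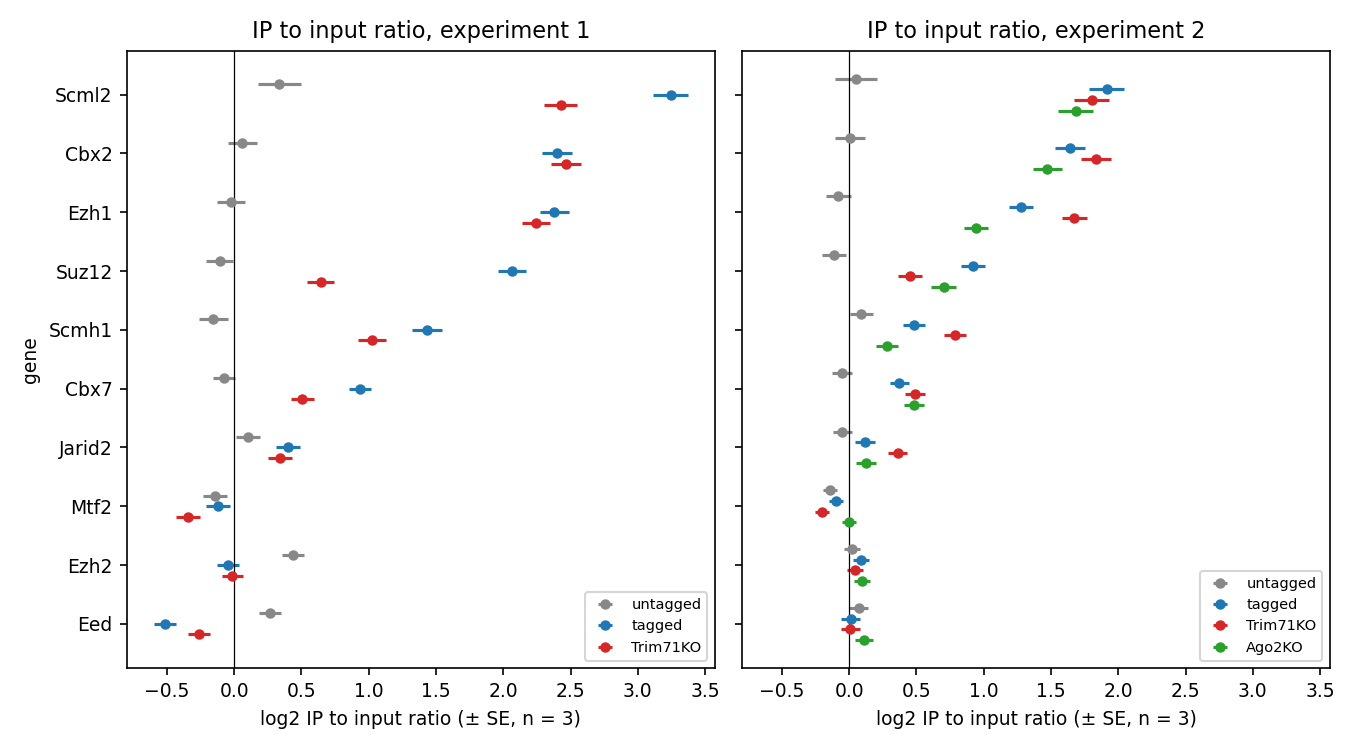
IP to input log2 ratio (x axis) for each of the 10 genes (y axis) by genotype, with the standard error of the edgeR fit, n = 3 libraries per fraction, in experiment 1 (left) and experiment 2 (right). Scml2, Cbx2, Ezh1 and Suz12 lie far above the untagged cells in tagged cells of both experiments, and Suz12 lies closer to 0 in Trim71KO than in tagged cells (0.64 against 2.07 in experiment 1, 0.45 against 0.92 in experiment 2).

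In tagged cells Scml2 had the largest ratio of IP to input of the 10 genes in both experiments. Scml2 and Scmh1 were included for their enrichment with the tag, so their rank and levels here are a description. In experiment 1 its IP held 83.6, 87.9 and 102 CPM in tagged cells and 5.33, 6.48 and 5.16 CPM in untagged cells. In experiment 2 its IP held 116, 89.3 and 88.5 CPM in tagged and 11.2, 10.9 and 10.6 CPM in untagged cells. The tagged libraries lay above every untagged library, and the fitted ratio of IP to input was 9.47 and 3.77 in tagged cells and 1.26 and 1.04 in untagged cells. For Scmh1 the tagged IP held 32.7, 35.3 and 38.9 CPM in experiment 1 and 26.8, 27.3 and 26.1 CPM in experiment 2. Its tagged inputs were 13.97, 12.2 and 13.4 CPM in experiment 1 but 18.5, 18.6 and 20.3 CPM in experiment 2. The Scmh1 log2 ratio was 1.43 in experiment 1 and 0.48 in experiment 2.

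The PRC1 reader Cbx2 and the PRC2 subunit Ezh1 had similar ratios in experiment 1, whereas that of Cbx2 was higher in experiment 2. Cbx2 had 191, 168 and 191 CPM in the tagged IP of experiment 1 against 40.1, 28.4 and 35.9 CPM in its input, a ratio of 5.27. Its ratio in experiment 2 was 3.12. Ezh1 had 165, 138 and 134 CPM in the tagged IP of experiment 1 against 29.3, 27.1 and 27.4 CPM in the input, a ratio of 5.21, and in experiment 2 the ratio was 2.42. No input library of either gene reached the level of a tagged IP library. For Cbx7, the main Cbx protein of embryonic stem cells, the ratio was 1.91 and 1.30.

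In the libraries labelled Trim71KO of experiment 1, the association of Suz12 with Tnrc6a was lower than in tagged cells, and this was the largest change among the 10 genes. Suz12, the scaffold of PRC2 (chr11:79993106-80034123, + strand, GRCm38.p6), had 1022, 979.6 and 1130.2 CPM in the tagged IP and 482, 419 and 373 CPM in the Trim71KO IP, while its inputs were 274, 243 and 230.3 CPM and 261, 263 and 291 CPM. The IP groups did not overlap, whereas the input ranges did. The untagged IP held 192, 199.6 and 204 CPM, below every Trim71KO IP library. The ratio of IP to input was 4.19 in tagged and 1.56 in Trim71KO cells, and its log2 change was -1.42 (SE 0.14, 95% interval -1.71 to -1.13, edgeR adjusted p = 2.957e-07). The change lay between -1.47 and -1.24 over 7 other settings and with each of 12 libraries left out, the libraries that stood apart included.

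In experiment 2 the Suz12 change had the same sign and missed the threshold. The tagged IP held 658, 552 and 492 CPM and the Trim71KO IP 502, 509 and 479.7 CPM, with inputs of 313, 284 and 302 CPM and 372, 332 and 388 CPM. Here the IP groups overlapped, whereas all 3 Trim71KO inputs lay above the tagged inputs. The log2 change of the ratio was -0.47 (SE 0.13, 95% interval -0.73 to -0.21, edgeR adjusted p = 0.05527). It was called in 4 of 7 other settings, DESeq2 and both replicate blocks among them, and also without tagged IP replicate 3 or without Trim71KO IP replicate 1. The difference between the experiments was itself called, at 0.96 (SE 0.19, edgeR adjusted p = 0.02786), in a test that called 0.0967% of 18620 genes.

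Trim71-dependent association was called lower for 3 of the 10 genes in experiment 1 and for 0 of 10 in experiment 2. Of all genes tested, 3.47% were called lower and 0.272% higher in experiment 1, and 0.738% lower and 0.753% higher in experiment 2. In experiment 2 edgeR gave 4 of the 10 genes an unadjusted p under 0.05 and DESeq2 called 1. The tagged libraries, here and in every other comparison with tagged cells, are also those of the tag-specific values, for which Scml2 and Scmh1 were chosen. RNA of Tnrc6a, the tagged gene, had a Trim71-dependent value of -0.86 in experiment 1 and -0.40 in experiment 2. The first was called (edgeR adjusted p = 0.04761) and the second was not (0.5421). The call was lost in 3 of 7 other settings and in 8 of 12 fits with a library left out. The Tnrc6a IP of experiment 1 ran from 19643 to 29473 CPM in tagged and from 13373 to 21758 CPM in Trim71KO cells. Whether the pulldown itself differed between these cells was not tested.

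Scml2 and Cbx7 were the other members called in experiment 1. Scml2 had 88.4, 72.7 and 61.6 CPM in the Trim71KO IP, which overlaps the tagged 83.6 to 102 CPM, and its input was 13.7, 13.1 and 14.5 CPM against 10.2, 9.06 and 9.61 CPM in tagged cells. The change of its ratio, -0.82 (SE 0.17, edgeR adjusted p = 0.005776), thus came with a higher input and overlapping IP levels. Cbx7 had 394, 397 and 382 CPM in the Trim71KO IP, below the tagged 459.6, 452 and 479 CPM, and its ratio changed by -0.43 (SE 0.12, edgeR adjusted p = 0.03947). Scml2 lost its call without tagged input replicate 3, Trim71KO input replicate 3 or Trim71KO IP replicate 2, with an adjusted p of up to 0.07509. Cbx7 lost its call in 5 of 7 other settings, both replicate blocks among them, and in 10 of 12 fits with a library left out, with an adjusted p of up to 0.2067.

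In experiment 2 the same comparison gave -0.11 for Scml2 (95% interval -0.48 to 0.26) and 0.12 for Cbx7 (-0.10 to 0.33). Scmh1 had -0.41 in experiment 1 (edgeR adjusted p = 0.1684) and 0.31 in experiment 2 (0.1959). Ezh1 had -0.14 (0.7311) and 0.40 (0.1221). Differences between the experiments missed the threshold for these 4 genes, at adjusted p-values of 0.2116 for Scml2, 0.0984 for Cbx7, 0.06962 for Scmh1 and 0.2013 for Ezh1. Cbx2, with a strong tag-specific association, had 0.07 (95% interval -0.25 to 0.38) and 0.19 (-0.12 to 0.51). The other PRC2 genes were not called in either experiment: Eed had 0.25 and 0.00, Mtf2 -0.23 and -0.11, Jarid2 -0.06 and 0.24, and Ezh2 0.03 and -0.04.

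**Figure D2:**
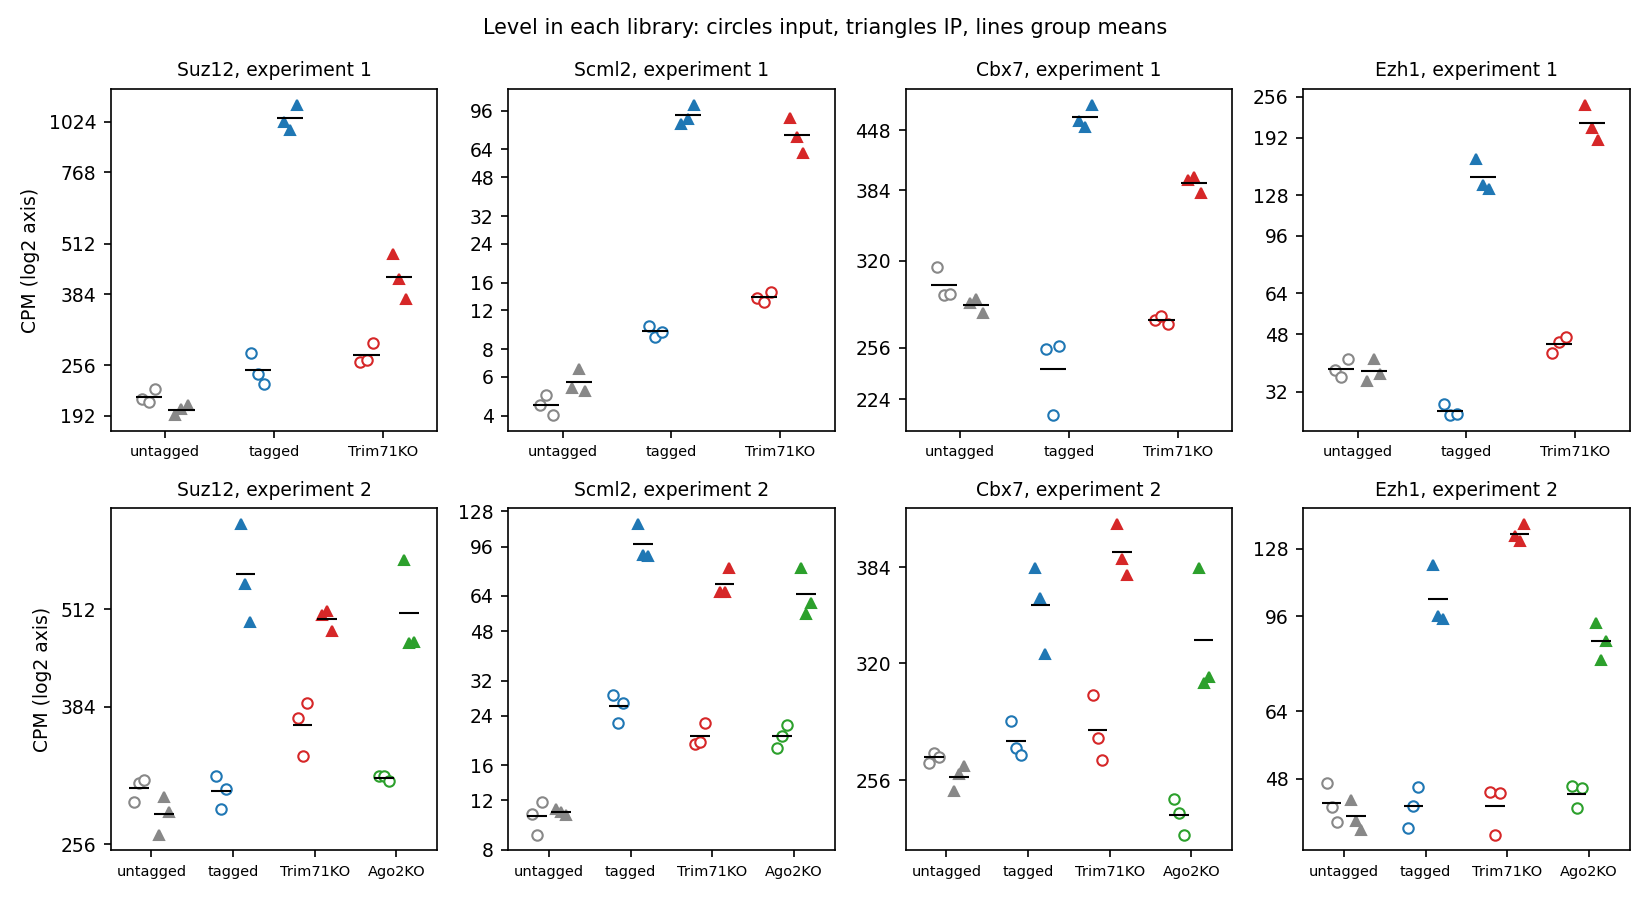
CPM (y axis, log2 scale) of Suz12, Scml2, Cbx7 and Ezh1 in each library by genotype (x axis), with input as open circles, IP as filled triangles and group means as lines, in experiment 1 (top) and experiment 2 (bottom). The Suz12 IP of Trim71KO cells, 373 to 482 CPM, lies between the untagged and tagged IP in experiment 1, and in experiment 2, at 479.7 to 509 CPM, it overlaps the tagged IP.

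In Ago2KO cells the association of none of the 10 genes passed the threshold of change against tagged cells. The edgeR test called 0 of 10, with 1 at an unadjusted p under 0.05, and DESeq2 also called 0, whereas 3.77% of all genes were called lower and 0.384% higher. The gene with the lowest adjusted p was Ezh1, whose Ago2KO IP held 93.3, 79.8 and 86.4 CPM against 119, 96.1 and 94.9 CPM in tagged cells. Each Ago2KO library lay below the lowest tagged library, while the inputs overlapped (46.6, 42.4 and 46.1 CPM against 38.9, 42.8 and 46.3 CPM). The log2 change of its ratio was -0.33 (95% interval -0.60 to -0.07, edgeR adjusted p = 0.1947). Suz12 had -0.22 (-0.48 to 0.04), Scml2 -0.23 (-0.60 to 0.14), Scmh1 -0.20 (-0.44 to 0.04) and Cbx2 -0.17 (-0.48 to 0.15). Cbx7 had 0.11 (-0.10 to 0.32), Eed 0.10 (-0.10 to 0.30), Mtf2 0.10 (-0.05 to 0.24), Ezh2 0.01 (-0.16 to 0.18) and Jarid2 0.01 (-0.20 to 0.21). The interval of Suz12 includes its Trim71KO change of the same experiment, -0.47.

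Set against each other, the knockouts differed for Ezh1 and Scmh1. The Ezh1 IP held 135, 132 and 142 CPM in Trim71KO cells, above every Ago2KO library, and its ratio was higher by 0.73 on the log2 scale (SE 0.13, edgeR adjusted p = 0.0002356). For Scmh1 the ratio was higher by 0.51 (SE 0.12, edgeR adjusted p = 0.003973), although the IP libraries overlapped, at 26.8, 27.1 and 25.8 CPM in Trim71KO and 26.6, 25.8 and 22.8 CPM in Ago2KO cells. Its inputs were 15.3, 16.3 and 14.5 CPM against 21.4, 20.3 and 20.4 CPM and did not overlap. Both calls held in all other settings and with each library left out. These were 2 of 10 genes called higher, beside 8.94% of all genes. The Suz12 ratio did not differ past the threshold between the knockouts, at -0.25 (95% interval -0.51 to 0.01, edgeR adjusted p = 0.2255). Cbx2 (0.36, adjusted p = 0.1393) was called with the replicate block within fraction and without Ago2KO IP replicate 1, and Mtf2 (-0.20, 0.0677) by DESeq2 and without Trim71KO IP replicate 1 or Ago2KO IP replicate 2.

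**Figure D3:**
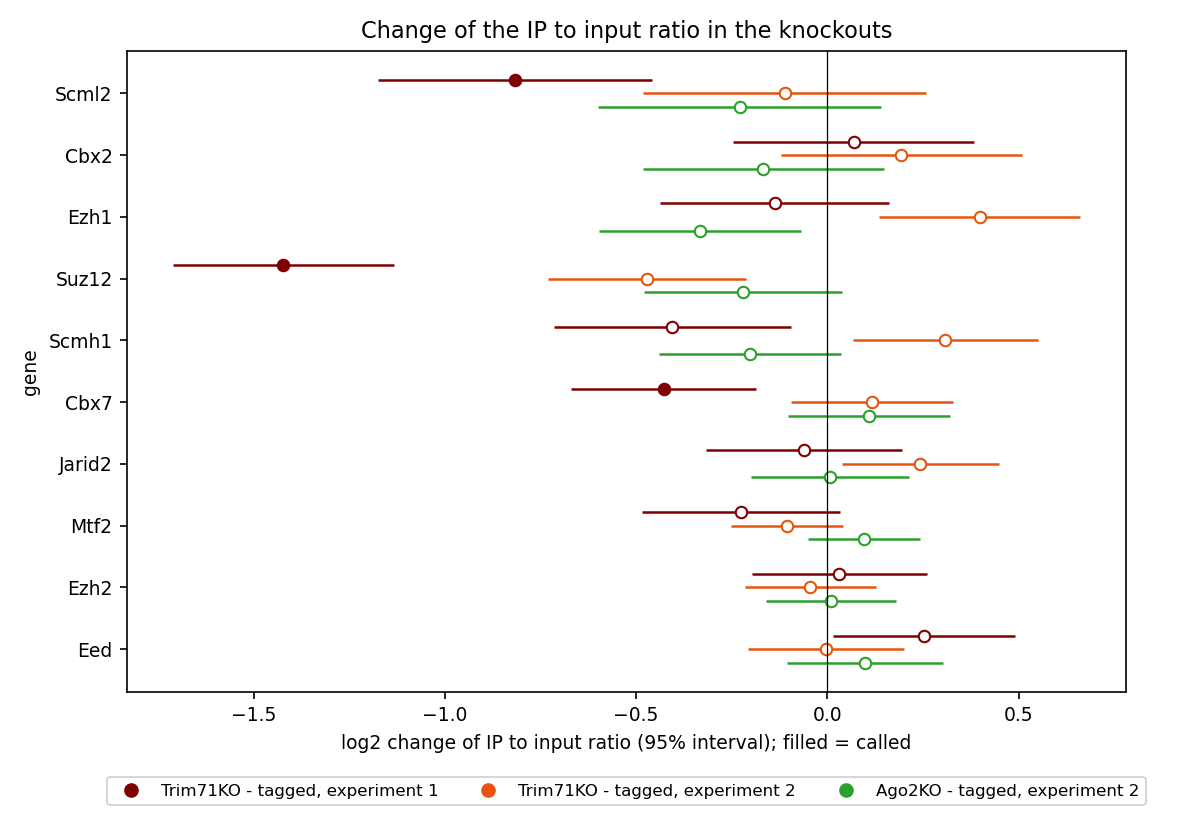
Change of the IP to input log2 ratio against tagged cells (x axis) with its 95% interval for each gene (y axis): Trim71KO in experiment 1, Trim71KO in experiment 2 and Ago2KO in experiment 2, each from 3 libraries per group and fraction. Filled points passed an edgeR adjusted p of 0.05, which are Suz12 (-1.42), Scml2 (-0.82) and Cbx7 (-0.43) of experiment 1.

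The other genes of the Polycomb lists, 52 tested genes of PRC2, PRC1, the MBT-domain proteins, PhoRC, PR-DUB and the H3K27 demethylases, give the pathway around the 10 members. Trim71-dependent association was lower for 7 of the 52 in experiment 1 and 3 of the 52 in experiment 2. Of all genes, 3.47% and 0.738% were lower. The median of the 52 was -0.145 and 0.108, beside -0.038 and 0.008 over all genes. Foxk1, a forkhead partner of the deubiquitinase PR-DUB, changed by -1.37 (SE 0.21) and -1.05 (SE 0.13). In experiment 1 the Foxk1 change came with a higher input in Trim71KO cells, by 0.79 (SE 0.15, edgeR adjusted p = 0.0003558). Phc3, a Polyhomeotic subunit of PRC1, changed by -1.34 (SE 0.21) and -0.79 (SE 0.18), and Yy1, the DNA-binding protein of PhoRC, by -0.997 (SE 0.13) and -0.48 (SE 0.10). These 3 genes passed the threshold in both experiments. In experiment 2 Phc3 missed it in 7 of 12 fits with a library left out, with an adjusted p of up to 0.08369, and Yy1 missed it without Trim71KO input replicate 2 and when only the compared groups were fitted (up to 0.05552).

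Suz12, at -1.42, lay beside Foxk1 and Phc3 in experiment 1 and, at -0.47, beside Yy1 in experiment 2. The mean Yy1 IP was 293 ± 43 CPM in tagged and 152 ± 7.5 CPM in Trim71KO cells of experiment 1 (SD, n = 3). In experiment 2 it was 204 ± 23 and 184 ± 7.0 CPM, while the Yy1 input was 147 ± 3.5 and 184 ± 9.4 CPM. As with Suz12, the IP means were farther apart in experiment 1 than in experiment 2, where the input mean was higher in Trim71KO cells.

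Ago2-dependent association was lower for 8 of the 52, beside 3.77% of all genes. The largest drops among genes whose libraries separated were those of Phc3 (-1.17, SE 0.18), L3mbtl3 (-0.79, SE 0.21), an MBT-domain protein, and Pcgf5 (-0.64, SE 0.15), a subunit of variant PRC1. L3mbtl3 missed the threshold with library size alone and in 6 of 12 fits with a library left out. With Trim71KO set against Ago2KO cells, 14 of the 52 were higher and 2 lower, beside 8.94% of all genes higher and 2.86% lower. The 2 lower genes were Yy1 (-0.61, SE 0.10) and Foxk1 (-0.45, SE 0.13). Foxk1 lost this call when only the compared groups were fitted and in 3 of 12 fits with a library left out, without Trim71KO input replicate 2, Ago2KO input replicate 1 or Ago2KO IP replicate 1, with an adjusted p of up to 0.07978. L3mbtl3 (1.30, SE 0.21), Pcgf5 (0.84, SE 0.16) and Dcaf7 (0.76, SE 0.10), an adaptor of variant PRC1, were the largest of the 14 by the same rule.

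Input RNA of the Polycomb genes also differed between Trim71KO and tagged cells, and Eed and Scmh1 did so in opposite directions in the 2 experiments. In bulk RNA, fewer cells of a type and less RNA per cell cannot be told apart. In experiment 1 the inputs of Ezh1, Scml2 and Scmh1 were higher, and those of Eed, Mtf2 and Ezh2 lower. In experiment 2 Jarid2, Suz12 and Eed were higher and Scmh1 lower. These counts of 3 higher and 3 lower, and of 3 higher and 1 lower, stand beside 16.5% of all genes called higher and 17.4% lower in experiment 1 and 13.5% higher and 13.7% lower in experiment 2.

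In experiment 1 Ezh1 input was 29.3, 27.1 and 27.4 CPM in tagged and 42.0, 45.5 and 46.9 CPM in Trim71KO cells, higher by 0.68 on the log2 scale (SE 0.11, edgeR adjusted p = 3.021e-05). Scml2 was higher by 0.52 (SE 0.13, 0.004101) and Scmh1, from 13.97, 12.2 and 13.4 to 19.2, 18.0 and 17.9 CPM, by 0.47 (SE 0.11, 0.001774). Eed fell from 269, 312 and 290.4 CPM to 199, 199.7 and 198 CPM, a change of -0.55 (SE 0.08, 1.782e-05). Mtf2, a Polycomb-like protein that binds CpG islands, had -0.40 (SE 0.09, 0.001303) and Ezh2 -0.29 (SE 0.08, 0.006812). The Trim71KO and tagged libraries did not overlap for these 6 genes, nor for Cbx7, which was not called (0.18, edgeR adjusted p = 0.09277). The share of all genes that separate in this way was not computed. All 6 calls held in every other setting and with each library left out.

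In experiment 2 Jarid2, the cofactor that recruits PRC2, had 530.0, 522 and 560.4 CPM in tagged and 713, 728 and 766 CPM in Trim71KO input, higher by 0.45 (SE 0.07, edgeR adjusted p = 2.216e-05). Its IP moved with its input, to 1019.5, 932 and 884 CPM from 638, 567 and 546 CPM, and its ratio was not called. Suz12 input was higher by 0.28 (SE 0.09, 0.01937), a call lost without tagged input replicate 2, Trim71KO input replicate 1 or Trim71KO input replicate 3. Eed was higher by 0.23 (SE 0.07, 0.01326), a call lost when only library totals were used for scaling and without tagged input replicate 3 or Trim71KO input replicate 2. Scmh1 was lower, at 15.3, 16.3 and 14.5 CPM against 18.5, 18.6 and 20.3 CPM, by -0.32 (SE 0.08, 0.005934). Scml2, at -0.35 (SE 0.13, 0.05169), missed the threshold, but was called in 3 of 6 other settings, the replicate block among them, and without tagged input replicate 2 or Trim71KO input replicate 3.

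The difference between experiments was tested in a joint fit that called 22.8% of all genes. It was called for 6 of the 10 genes: Eed (0.78, SE 0.10), Scmh1 (-0.79, SE 0.13), Scml2 (-0.87, SE 0.20), Ezh1 (-0.69, SE 0.15), Jarid2 (0.43, SE 0.11) and Mtf2 (0.38, SE 0.09), each as experiment 2 minus experiment 1 on the log2 scale. Mtf2 lost that call when only library totals were used (adjusted p = 0.0672). Whether the same Trim71-/- cells were used in both experiments is not given in the sources used here, so the cells and the experiment as a batch cannot be told apart.

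**Figure D4:**
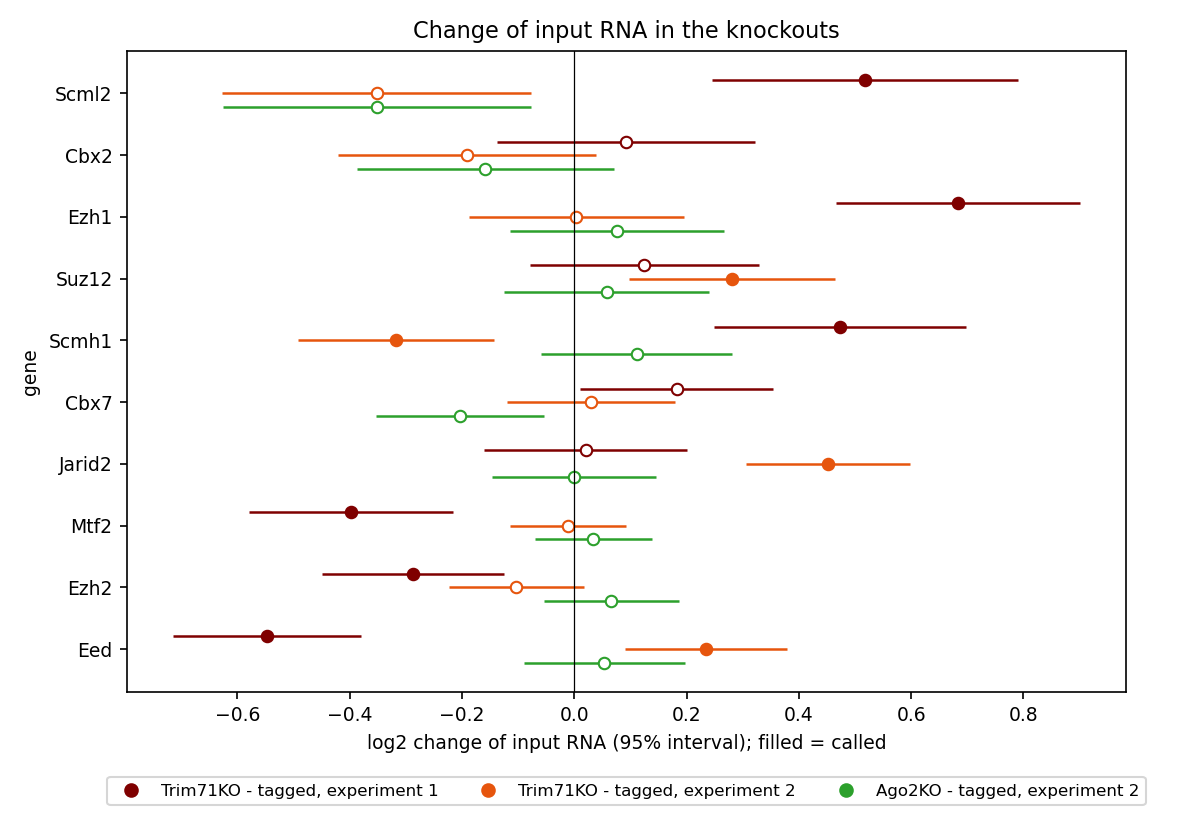
Log2 change of input RNA against tagged cells (x axis) with its 95% interval for each gene (y axis), for Trim71KO in experiments 1 and 2 and Ago2KO in experiment 2, from 3 libraries per group. Filled points passed an edgeR adjusted p of 0.05: Eed lies at -0.55 in experiment 1 and 0.23 in experiment 2, Scmh1 at 0.47 and -0.32, and no point of Ago2KO is filled.

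Input RNA of the 10 genes was called for none of them in Ago2KO against tagged cells, where 4.38% of all genes were called higher and 2.57% lower. The edgeR test gave 2 of them an unadjusted p under 0.05, Scml2 (-0.35, 95% interval -0.63 to -0.08) and Cbx7 (-0.20, -0.35 to -0.05), and DESeq2 called 0. Both were called when only library totals were used and when only the compared groups were fitted. Trim71KO input differed from Ago2KO input for 4 of the 10 genes, 2 each way, beside 13.2% of all genes higher and 15.1% lower. Jarid2 (0.45, SE 0.07, edgeR adjusted p = 2.191e-05) and Cbx7 (0.23, SE 0.07, 0.01702) were higher, and Scmh1 (-0.43, SE 0.08, 0.0003248) and Ezh2 (-0.17, SE 0.06, 0.03123) lower. Cbx7 lost its call without Trim71KO input replicate 1 or Ago2KO input replicate 3, with an adjusted p of up to 0.09105, and Ezh2 lost it under RLE scaling as well as in 4 of 6 fits with a library left out, without replicate 1 or 2 of the Trim71KO input or replicate 2 or 3 of the Ago2KO input. Eed (0.18, adjusted p = 0.05383) and Suz12 (0.22, 0.06124) missed the threshold in edgeR but were called in 5 of 6 and 4 of 6 other settings, the replicate block and DESeq2 among them, and DESeq2 called 6 of the 10 genes.

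Scml2 was the member whose input differed between tagged and untagged cells in both experiments. Its input was 4.47, 4.95 and 4.01 CPM in untagged and 10.2, 9.06 and 9.61 CPM in tagged cells of experiment 1. In experiment 2 it was 10.7, 9.05 and 11.8 CPM in untagged and 28.4, 22.7 and 26.7 CPM in tagged cells. Tagged libraries lay above all untagged ones within each experiment, and the change was 1.10 (SE 0.15, edgeR adjusted p = 4.007e-05) and 1.30 (SE 0.14, 3.168e-06). Both calls held in every other setting and with each library left out. These inputs are also part of the tag-specific value for which Scml2 was chosen. The experiments were scaled separately, and the untagged inputs of experiment 2 lay at the level of the tagged inputs of experiment 1. The Scml2 gene lies at chrX:161082525-161258218 on the + strand of GRCm38.p6.

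In experiment 2 Scml2 was the 1 gene of 10 called in this comparison, where 0.809% of all genes were called higher and 0.581% lower. In experiment 1, with 5.69% of all genes higher and 4.87% lower, Eed was also higher (0.39, SE 0.08, edgeR adjusted p = 0.003367), and Cbx7 (-0.31, SE 0.08, 0.01786) and Ezh1 (-0.43, SE 0.11, 0.01129) were lower. Cbx7 lost its call without tagged input replicate 2 or any of the 3 untagged inputs, with an adjusted p of up to 0.1237. Ezh1 lost it without tagged input replicate 2 or 3 or untagged input replicate 1 or 3, with an adjusted p of up to 0.08537. The corresponding values in experiment 2 were 0.02 for Eed, 0.04 for Cbx7 and -0.02 for Ezh1, and the difference between experiments was called for Eed (-0.35, SE 0.10), Cbx7 (0.38, SE 0.11) and Scmh1 (0.53, SE 0.13), in a joint fit that called 2.89% of all genes. Eed lost that call with library size alone (adjusted p = 0.13) and Cbx7 with RLE size factors (0.0603), whereas Ezh1 was called with library size alone (0.04114).

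Of the other Polycomb genes, Ezhip, an inhibitor of PRC2, was higher in the input of tagged than of untagged cells by 0.82 (SE 0.15) and 0.75 (SE 0.13). It was the 1 gene of the 52 called in experiment 2, where 11 were called in experiment 1, 4 higher and 7 lower. Of all genes, 0.809% were higher and 0.581% lower in experiment 2, and 5.69% higher and 4.87% lower in experiment 1. In Trim71KO input, 13 of the 52 were higher and 7 lower in experiment 1, and 11 higher and 11 lower in experiment 2. The shares over all genes were 16.5% higher and 17.4% lower in experiment 1, and 13.5% higher and 13.7% lower in experiment 2. Epop, a PRC2 partner that binds elongin, was higher in both, by 0.67 (SE 0.10) and 1.36 (SE 0.10). Epop averaged 438 ± 52 CPM in tagged and 699 ± 52 CPM in Trim71KO input of experiment 1.

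A list of 22 developmental genes that Polycomb complexes keep silent in stem cells shows few transcripts. Of them, 11 were tested in each experiment. In Trim71KO input 2 were higher and 4 lower in both experiments, with medians of -0.812 and -0.923 beside -0.008 and -0.011 over all genes. Over all genes, 16.5% were called higher and 17.4% lower in experiment 1, and 13.5% higher and 13.7% lower in experiment 2. Sox17, an endoderm regulator, was at 5.12 ± 1.2 CPM in tagged and 0.675 ± 0.36 CPM in Trim71KO input of experiment 1, and at 1.27 ± 0.16 and 0.234 ± 0.15 CPM in experiment 2 (SD, n = 3). Cdkn2a went the other way in experiment 2, where it was 1 of the 2 higher genes, by 0.81 (SE 0.20, edgeR adjusted p = 0.003107). Sox17 and Gata4 also belong to a list of 10 primitive endoderm markers. The summed input of that list ran from 164 to 169 CPM in Trim71KO and from 236 to 349.5 CPM in tagged cells of experiment 1. In experiment 2 it was 114 to 129 CPM and 122 to 150.4 CPM. In both experiments 7 of 10 markers averaged above 1 CPM in Trim71KO input against 10 of 10 in tagged input. In Ago2KO input of experiment 2 the sum ran from 87.6 to 95.6 CPM, and 7 of 10 markers averaged above 1 CPM. The summed input of the 3 fibroblast markers with a row, of a list of 8, ran from 67.0 to 71.8 CPM in Trim71KO and from 30.9 to 32.6 CPM in tagged cells of experiment 1, and from 58.5 to 62.1 CPM and 54.3 to 57.1 CPM in experiment 2. The part of other cell types in the input changes of the 10 genes was not tested.

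The genes whose group means across all 14 groups were most like those of Scml2 were Tspyl5, Atxn1 and Mospd2, with Pearson correlations of log2 CPM of 0.979, 0.973 and 0.973 among 18553 genes. For Scmh1 they were Ssh2 (0.985), the gene with identifier ENSMUSG00000084347 (0.982) and Mfsd9 (0.974). The 14 points share libraries within each group and mix the experiments and fractions, and the values are a description.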

How the data were processed

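Each experiment came as 1 deposited table, in which the authors give unnormalized counts for each gene; the deposited RPKM columns were not used further. Tools listed are bcl2fastq 2.20 and STAR 2.7.3a, with builds GRCm38 and mm10, per the submitters' processing notes. The counting tool, annotation and strand setting are not given in the sources used here. The test was the quasi-likelihood F test of edgeR 4.0.16 (R 4.3.3) after filterByExpr and TMM scaling. All groups of an experiment entered 1 fit and the experiments were fitted separately, with 18772 and 19778 genes tested. Association is an interaction of fraction and genotype. Calls are made at 0.05 after Benjamini-Hochberg adjustment across every tested gene. Standard errors (SE) were derived from the log2 change and its F statistic. A joint fit of both experiments gave their differences.

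The 10 genes and all lists were chosen with earlier results of these data known. Named are the 10 genes throughout, Tnrc6a, Trim71 and Ago2, up to 3 other Polycomb genes each way per comparison with the largest change among those called and separating completely, and the 3 genes most like Scml2 and Scmh1. Positions and microRNA sequences are RefSeq's. Alternatives were RLE size factors, library size alone, no filter, replicate blocks, only the groups compared, DESeq2 1.42.0 and each library left out. Over 25 pairs of groups, correlations of same-numbered deviations ran from -0.121 to 0.261 and 0 pairs had all 3 above 0.1. With 3 libraries per group this cannot exclude that replicate numbers pair the libraries, and the main fit used no replicate block. For Trim71-dependent association, the replicate block by lysate gave a call for Suz12 in experiment 2 and lost that of Cbx7 in experiment 1. On counts simulated for Trim71-dependent association the fit recovered 88 of 100 genes changed 2-fold in experiment 1 and 95 of 100 in experiment 2. There were 18475 and 19603 genes tested, and 7.43% and 5.37% of the calls were false. The changed genes had a mean above 100 counts, only their IP was changed, and Trim71KO input was set equal to tagged input. These rates therefore do not cover genes with fewer counts or with changed input. Reads carry no stated molecular identifiers, so precision from depth ignores duplicate molecules.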

Additional observations from a re-analysis of the deposited data

Results flagged for a closer look

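These results are listed because a test of the difference between the 2 experiments passed an edgeR adjusted p of 0.05. Each value is the log2 change in experiment 2 minus that in experiment 1, and experiment and batch cannot be told apart. Trim71-dependent association of Suz12 differed by 0.96. For input of Trim71KO against tagged cells the difference was -0.87 for Scml2, -0.79 for Scmh1 and -0.69 for Ezh1. In the same comparison it was 0.38 for Mtf2, 0.78 for Eed and 0.43 for Jarid2. For input of tagged against untagged cells it was 0.53 for Scmh1, -0.35 for Eed and 0.38 for Cbx7. In this last comparison Eed missed the threshold with library size alone and Cbx7 with RLE size factors, and Mtf2 did so in the comparison before with library size alone.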

How the results depend on the processing

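No called change turned its sign under any alternative. Of 24 calls on the 10 genes, 16 held in every alternative setting and with each library left out. For Trim71-dependent association of experiment 2, where 0 genes were called, library size alone gave 2 calls (Suz12 and Ezh1), and the replicate block within fraction, the replicate block by lysate and DESeq2 gave 1 each, with 0 to 1 when a library was left out. For input of Ago2KO against tagged cells, also 0, library size alone gave 2, only the groups compared gave 2 and the replicate block within fraction gave 1. With a library left out, the calls ranged from 1 to 3 for Trim71-dependent association of experiment 1 (1 without tagged input replicate 3, Trim71KO input replicate 3 or Trim71KO IP replicate 2), from 2 to 4 for input of tagged against untagged cells of experiment 1, and from 2 to 5 for input of Trim71KO against Ago2KO cells. For the difference between experiments in input of tagged against untagged cells, Cbx7 missed the threshold with RLE size factors (adjusted p = 0.0603) and Eed with library size alone (0.13), where Ezh1 passed it (0.04114). The cause of these changes was not tested. Of 25 pairs of groups, 3 had every library correlating best with its own number. Depth limits Scml2 most, with as few as 72 counts in a library.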
